A study of Mus musculus with 20 samples.

Results

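MSRT1 kidney tumours of mice differed widely in how much RNA they held for fibrillar collagen, and the 6 tumours richest in it are set here against the 6 poorest. The classes were chosen by measured values of the same libraries. The measure is a collagen score: the mean log2 TPM (a gene's length-corrected share of all transcripts in a library) of Col1a1, Col1a2 and Col3a1, minus the median log2 TPM of all genes that reached 1 TPM in at least 5 of the 20 libraries. Of 20 libraries, 18 were ranked by this score, and GYY_PD1 replicates 1 and 4 were left out of the ranking. The 6 highest are called collagen-rich, the 6 lowest collagen-poor and the other 6 middle. All other genes annotated as protein-coding that passed the same filter, 11821 in all, were then compared between the 2 classes.

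Each library is bulk RNA labelled as a biological replicate. The labels give the cell type of MSRT1 as renal medullary carcinoma, a tumour in which SMARCB1, a subunit of a chromatin remodelling complex, is typically lost. The 20 tumours fall into 4 groups of 5, which received GYY4137 with an antibody against the checkpoint receptor PD1 (GYY_PD1), GYY4137 with control antibody (GYY_IgG), vehicle with the PD1 antibody (Veh_PD1) or vehicle with control antibody (Veh_IgG). GYY4137 is a slow-releasing hydrogen sulfide donor. Strain, age, dose and day of collection are not given in the sources used here, and all groups carry the same cell line. The collagen-rich class holds GYY_PD1 replicates 3 and 5, GYY_IgG replicates 4 and 5 and Veh_IgG replicates 1 and 4. The collagen-poor class holds GYY_IgG replicates 1 and 3, Veh_PD1 replicates 3 and 5 and Veh_IgG replicates 2 and 3.

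Fibrillar collagens I and III are the main structural proteins of connective tissue. In most carcinomas they are made by fibroblasts and by pericytes, the support cells of small vessels, which secrete procollagen chains that are hydroxylated in the endoplasmic reticulum, trimmed outside the cell and cross-linked into fibrils. Small leucine-rich proteoglycans coat the fibrils, fibrillins and elastin form the elastic fibres beside them, and membrane and secreted metalloproteases remodel them. TGF-beta and PDGF are the classical signals that drive fibroblasts to make matrix, and contractile fibroblasts, called myofibroblasts, are recognised by smooth muscle actin.

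The labels describe 1.0 ug of total RNA per library, and the deposited values keep no read number, so depth is unknown. Collagen-rich libraries had from 12313 to 14821 genes at 1 TPM or more, and collagen-poor libraries from 11517 to 14629. A set of 13 gene models that resemble the major satellite repeat took from 4.02% to 54.8% of TPM in collagen-rich libraries and from 3.53% to 54.9% in collagen-poor libraries, with 3 collagen-rich and 2 collagen-poor libraries above 20%. Because of this background, levels are stated as log2 TPM minus the median of the filtered genes of the same library (the relative level), and differences are collagen-rich minus collagen-poor on that scale. The median itself differed by 0.08 (log2) between the classes. The libraries left out, GYY_PD1 replicates 1 and 4, had 8198 and 6659 genes at 1 TPM or more.

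The 3 score genes chose the classes, so their values are a description without a test. Col1a1 (chromosome 11, 94936224 to 94953042, build mm10), the alpha-1 chain of type I collagen, ranged from 16.5 to 138 TPM (median 54.99) in collagen-rich libraries and from 1.49 to 8.55 TPM (median 3.004) in collagen-poor libraries. Col1a2 (chromosome 6, 4504814 to 4541544), its alpha-2 chain, ranged from 10.04 to 89.1 TPM (median 29.98) in collagen-rich libraries and from 0.354 to 4.28 TPM (median 1.92) in collagen-poor libraries. Col3a1 (chromosome 1, 45311538 to 45349706), the single chain of type III collagen, ranged from 12.1 to 116 TPM (median 41.7) in collagen-rich libraries and from 0.457 to 2.72 TPM (median 1.36) in collagen-poor libraries. The classes did not overlap for any of the 3. Relative to the library median the mean differences were 3.94, 4.35 and 4.94 on the log2 scale.

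The score ran from 1.54 to 4.42 in the collagen-rich class, from -1.04 to 1.43 in the middle and from -3.52 to -1.16 in the collagen-poor class. GYY_PD1 replicate 5 was the last library inside the collagen-rich class at 1.54, and GYY_IgG replicate 2 was just outside it at 1.43. At the other boundary GYY_IgG replicate 1 was inside the collagen-poor class at -1.16, and GYY_PD1 replicate 2 was just outside at -1.04. GYY_PD1 replicate 3 (4.42) and GYY_IgG replicate 4 (3.75) stood above the next library, Veh_IgG replicate 1, at 2.13. The 18 libraries left a gap between 0.81 and -0.76, with 9 on each side. Of the libraries left out, GYY_PD1 replicate 1 would have scored 1.93 and replicate 4 -1.06.

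**Figure D1:**
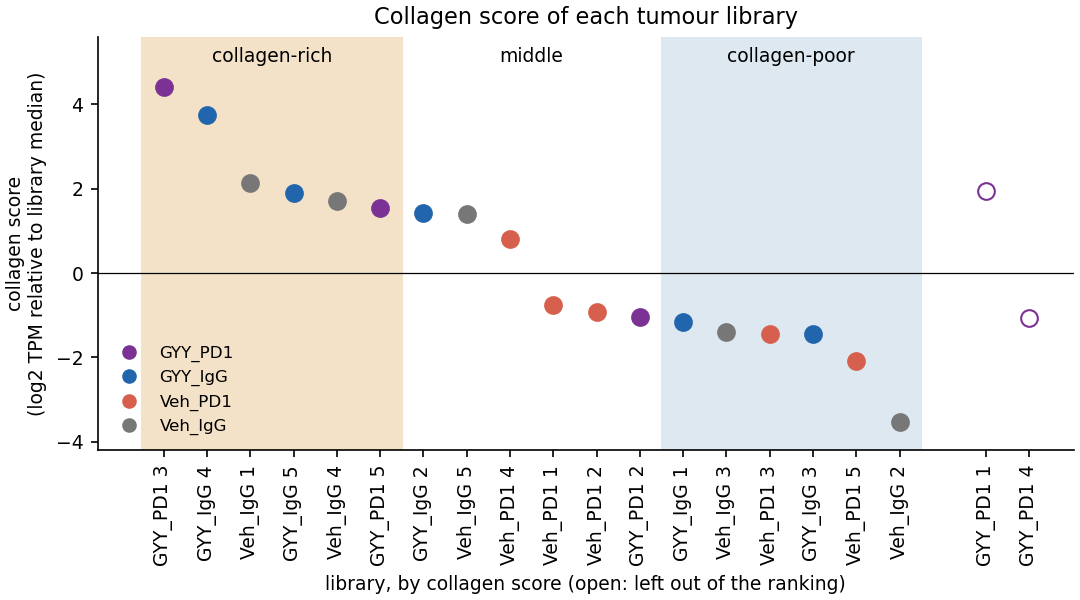
Collagen score of each library (mean log2 TPM of 3 collagen genes relative to the library median, vertical axis), ordered by score and coloured by treatment group. The 6 collagen-rich libraries lie between 1.54 and 4.42 and the 6 collagen-poor libraries between -3.52 and -1.16, and GYY_IgG and Veh_IgG libraries occur in both classes.

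Treatment labels played no part in the ranking, so the score could be tested against them. Over the 18 libraries it averaged 1.18 ± 2.24 with GYY4137 (SD, n = 8) and -0.40 ± 1.84 with vehicle (SD, n = 10). The difference of 1.58 did not exceed the spread (two-sided exact permutation p = 0.119, adjusted over 2 comparisons 0.238). With the PD1 antibody the score averaged 0.07 ± 2.12 (SD, n = 8), and with control antibody 0.48 ± 2.22 (SD, n = 10; difference -0.41, exact permutation p = 0.680, adjusted 0.680). The 5 Veh_PD1 libraries ran from -2.07 to 0.81 and included no collagen-rich tumour, while the 3 ranked GYY_PD1 libraries ran from -1.04 to 4.42 and included no collagen-poor one. GYY_IgG ran from -1.43 to 3.75 and Veh_IgG from -3.52 to 2.13, with 2 libraries in each class.

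Across the other protein-coding genes, 45 were higher in collagen-rich tumours and 10 lower at an adjusted p under 0.05 (limma, Benjamini-Hochberg over 11821 genes), which is 0.381% and 0.0846% of the genes tested. With the deposited log2 TPM the split was 62 higher and 5 lower, and after rescaling to coding genes 37 and 0. In both of these fits all genes took the trended variance, so neither split is comparable with the main one. The rescaling kept satellite-like models annotated as coding in its total and added 1 before taking the log. With treatment as a term in the model 0 genes passed (limma; 523 had an unadjusted p under 0.05), and with 1 library left out in turn the calls ran from 13 (without GYY_IgG replicate 4) to 72 (without GYY_IgG replicate 1). At an unadjusted p under 0.05 the shares were 8.81% higher and 6.23% lower. In sign alone, 6390 of the 11821 genes had a higher mean in collagen-rich libraries and 5431 a lower one. The counts of each list below are to be read against these shares. Every collagen-rich library lay above every collagen-poor library, relative to the median, for 128 genes (1.08%), and below every one for 40 (0.338%). Because the classes were set from RNA of the same 12 libraries, these p-values rank genes by how closely they follow the collagens, and they are not a test of an independent grouping. The 45 higher genes had log2 differences from 0.75 to 6.12, and the 10 lower genes from -1.24 to -0.56. In 42 of the 45 and 7 of the 10 the classes did not overlap relative to the median, and in 20 of the 45 they did not overlap in TPM either. Of the higher genes, Lum, Dpt, Cxcl12, Mfap4, Cyp1b1, Sfrp2 and Cpxm1 stayed under 1 TPM in every collagen-poor library. So did Tmem119, Slit3, Eln, Col8a1, Fzd1, Ptgfrn and Adgra2. All of these passed the filter through the other libraries, so their sign was partly fixed by the filter. Their calls and lack of overlap, given below, are therefore no independent support. In bulk RNA, fewer cells of a type and less RNA per cell cannot be told apart.

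Small leucine-rich proteoglycans, which bind collagen fibrils and limit their width, included the 2 largest differences of all called genes. All 7 tested members of the list of 12 were higher on average, 3 of 7 passed the threshold, and the list median was 1.77 against 0.02 for all tested genes. Lumican (Lum) ranged from 1.45 to 21.96 TPM (median 3.89) in collagen-rich libraries and from 0.0262 to 0.107 TPM (median 0.0645) in collagen-poor libraries. Its log2 difference was 6.12 (SE 0.73, adjusted p = 0.00347, limma), and 5.58 without GYY_PD1 replicate 3. Decorin (Dcn) ranged from 4.85 to 191 TPM (median 26.9) in collagen-rich libraries and from 0.2896 to 1.42 TPM (median 0.651) in collagen-poor libraries. Neither gene overlapped between the classes. GYY_PD1 replicate 3 was the highest library for both, and without it the difference of Dcn was 4.74, against 5.34 with it. Biglycan (Bgn) was the most abundant of the 3 in collagen-poor tumours and ranged from 12.5 to 148 TPM (median 41.6) in collagen-rich libraries and from 1.31 to 13.6 TPM (median 4.58) in collagen-poor libraries. Its TPM values overlapped, but relative to the library median all 6 collagen-rich libraries lay above all 6 collagen-poor ones (log2 difference 3.30, SE 0.49). Asporin (Aspn), with a log2 difference of 1.12 (SE 0.38), did not pass (adjusted p = 0.206, limma).

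Among other collagens, 3 further chains were called higher. Of the fibrillar collagens that did not enter it, Col5a2, a chain of the type V collagen that nucleates fibrils, ranged from 2.08 to 13.9 TPM (median 4.95) in collagen-rich libraries and from 0.246 to 1.13 TPM (median 0.433) in collagen-poor libraries, without overlap. Its log2 difference was 3.28 (SE 0.41) and its adjusted p 0.00347 (limma). The other type V chains, Col5a3 with 1.67 (SE 0.48) and Col5a1 with 0.75 (SE 0.21), did not pass, and the other 5 members of the list stayed under the filter. Among fibril-associated and microfibril collagens 2 of 7 tested members passed, with a list median of 1.55. These were Col8a1, a short-chain collagen of vessel walls (log2 difference 3.24, SE 0.57), and Col6a2, a chain of the type VI beaded filament (2.53, SE 0.41). Col14a1 (1.97, SE 0.45) and Col6a3 (1.55, SE 0.40) did not pass, although Col14a1 did not overlap between the classes relative to the median.

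Elastic fibres and matrix glycoproteins held 7 of the 45 higher genes. All 13 tested members of the elastic fibre list were higher on average, 4 of 13 passed, and the median was 1.52. Fibrillin-1 (Fbn1), the backbone of microfibrils, ranged from 1.82 to 13.1 TPM (median 4.33) in collagen-rich libraries and from 0.3802 to 1.28 TPM (median 0.557) in collagen-poor libraries. Elastin (Eln) ranged from 1.08 to 7.78 TPM (median 2.91) in collagen-rich libraries and from 0.127 to 0.506 TPM (median 0.283) in collagen-poor libraries. Neither gene overlapped between the classes. The microfibril-associated Mfap5 had a log2 difference of 3.30 (SE 0.46). Mfap4, another of this kind, ranged from 1.07 to 8.803 TPM (median 2.52) in collagen-rich libraries and from 0 to 0.541 TPM (median 0.103) in collagen-poor libraries. It is listed at 0 in 1 collagen-poor library, so its fitted difference depends on the floor of the table and no fold is given.

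Of the matrix glycoproteins 3 of 14 tested members passed, with a median of 1.35. Periostin (Postn), which organises collagen in healing and fibrotic tissue, ranged from 5.88 to 23.7 TPM (median 7.43) in collagen-rich libraries and from 0.566 to 3.299 TPM (median 1.61) in collagen-poor libraries. The fold relative to the library median was 6.399 (log2 2.68, SE 0.34, adjusted p = 0.00347, limma). Thrombospondin-2 (Thbs2), a regulator of fibril assembly, had a log2 difference of 3.82 (SE 0.62) and spondin-1 (Spon1) one of 2.17 (SE 0.42). Sparcl1 came close to the threshold at 1.53 (SE 0.32, adjusted p = 0.0515, limma). All collagen-rich libraries lay above all collagen-poor ones for Postn, Thbs2 and Spon1, relative to the median.

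**Figure D2:**
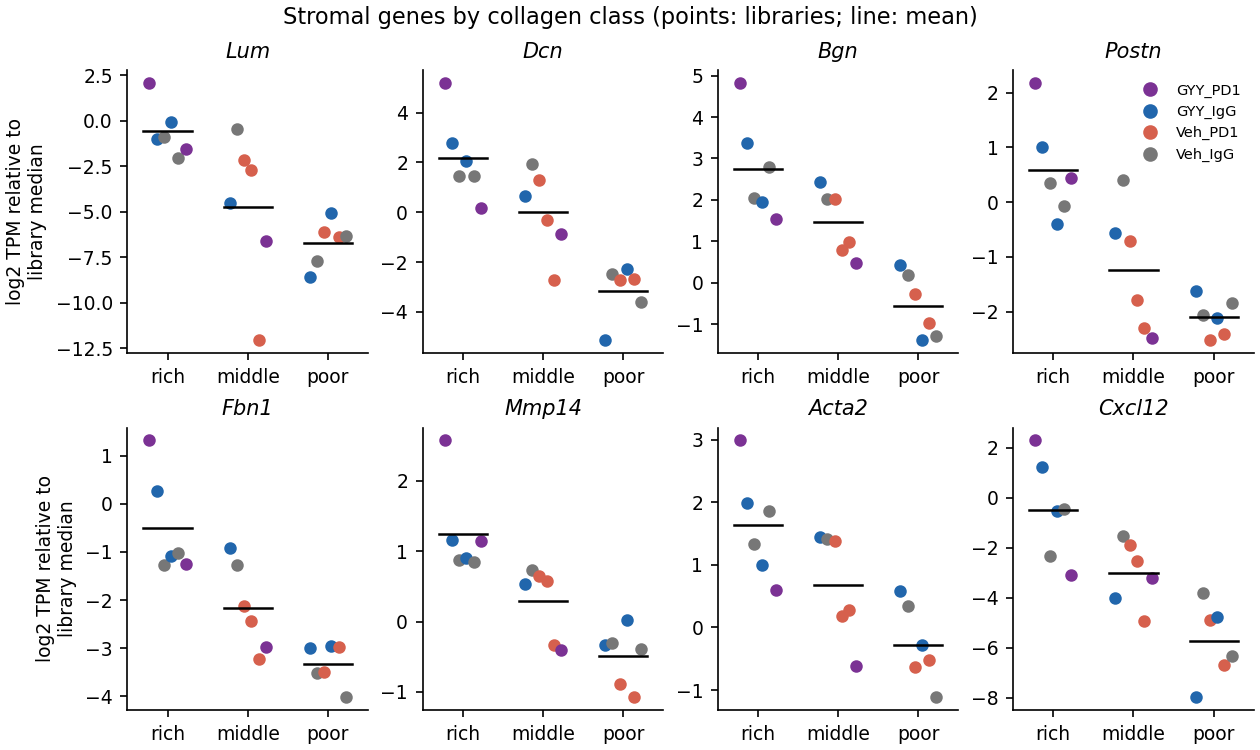
Level of 8 stromal genes in log2 TPM relative to the library median, by collagen class, with 1 point per library coloured by treatment group and the class mean as a line (a value of 0 TPM, Lum in 1 middle library, is drawn at the floor of the table). The collagen-rich points lie above the collagen-poor points for all 8 genes, and GYY_PD1 replicate 3 is the highest point of the collagen-rich class in each.

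Sequence before the RefSeq start is shown for 2 of the score genes and for Postn, since these move together across the tumours. Each line gives the 150 bases before the start site in RefSeq (build GRCm38.p6, plus strand), from chr6:4505468-4505617 for Col1a2, chr1:45311388-45311537 for Col3a1 and chr3:54360957-54361106 for Postn. The RefSeq start of Col1a2 lies 804 bases inside the gene span given above, which is the GENCODE one, so its window is before the RefSeq start but within the GENCODE gene. For Col3a1 and Postn the 2 annotations differ by 0 and 2 bases. Capitals mark TATAAA or CCAAT, which were searched on both strands and do not overlap each other in these windows.
Col1a2: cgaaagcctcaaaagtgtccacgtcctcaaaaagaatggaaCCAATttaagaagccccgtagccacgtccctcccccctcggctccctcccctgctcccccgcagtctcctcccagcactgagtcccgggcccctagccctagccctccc
Col3a1: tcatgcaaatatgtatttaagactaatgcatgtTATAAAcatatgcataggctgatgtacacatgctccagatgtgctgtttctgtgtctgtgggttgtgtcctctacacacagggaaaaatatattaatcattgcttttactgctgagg
Postn: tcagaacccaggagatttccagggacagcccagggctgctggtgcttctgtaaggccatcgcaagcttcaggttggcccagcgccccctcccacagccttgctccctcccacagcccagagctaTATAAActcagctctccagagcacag
Col1a2 holds a CCAAT and Col3a1 and Postn hold a TATAAA in these windows. Over the 250 bases before the RefSeq start, TATAAA was found in 4 of the 27 higher genes with a window (14.8%), in 2 of the 8 lower genes with one (25%) and in 594 of 9307 tested genes (6.38%). CCAAT was found in 7 of the 27 (25.9%), in 2 of the 8 (25%) and in 3436 of the 9307 (36.9%). A match is a description of letters and not of a bound site.

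Among the enzymes that build and cross-link collagen no gene was called, where 0.381% of all tested genes were called higher. Of 23 tested genes for collagen modification, secretion and cross-linking 0 passed with limma, and the median was 0.26. At an unadjusted p under 0.05, 11 of the 23 were higher and 1 lower, against 8.81% and 6.23% of all tested genes. The members nearest to the threshold were Adamts2, which removes the N-propeptide of procollagen (2.40, SE 0.52, adjusted p = 0.0648, limma), the lysyl hydroxylase Plod2 (2.14, SE 0.58), the collagen chaperone Fkbp10 (1.41, SE 0.38) and the lysyl oxidase Loxl3 (0.57, SE 0.18). Adamts2 did not overlap between the classes relative to the median, with 6 of 6 collagen-rich libraries on top. Basement membrane genes also gave 0 calls of 17 tested, with 7 higher and 1 lower at an unadjusted p under 0.05 and a median of 0.28. The 4 with the smallest p were the type IV collagen chains Col4a1 (1.16, SE 0.31) and Col4a2 (1.10, SE 0.31), Col15a1 (1.196, SE 0.35) and the laminin chain Lama4 (1.32, SE 0.41).

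Among matrix proteases and their inhibitors 2 of 20 tested members passed, with a median of 0.44. Mmp14, the membrane-type collagenase, ranged from 7.57 to 31.2 TPM (median 16.2) in collagen-rich libraries and from 1.42 to 8.05 TPM (median 4.81) in collagen-poor libraries (log2 difference 1.75, SE 0.27, adjusted p = 0.0154, limma). Adamts4, an aggrecanase, had a log2 difference of 1.01 (SE 0.21). The inhibitor Timp3 showed 2.17 (SE 0.62) and did not pass. Collagen receptors and integrins gave 0 calls of 11 with a median of 0.26. Their largest difference was that of Mrc2, the endocytic collagen receptor (2.61, SE 0.57, adjusted p = 0.0645, limma).

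Signals that act on fibroblasts gave a single call. Of 21 tested TGF-beta ligands, receptors and targets, 19 had a higher mean, 11 passed an unadjusted p under 0.05 and 1 passed the threshold, with a median of 0.46. That gene was Inhbb, a chain of activin B (log2 difference 0.97, SE 0.20, adjusted p = 0.0493, limma). Tgfb1 ranged from 18.9 to 61.8 TPM (median 37.1) in collagen-rich libraries and from 12.4 to 49.4 TPM (median 23.1) in collagen-poor libraries with a log2 difference of 0.50 (SE 0.14), and Tgfbi, a secreted target, had 0.76 (SE 0.19). Neither passed. Pmepa1, a TGF-beta-induced feedback inhibitor outside the list and named after its value was seen, was higher by 2.01 (SE 0.38, adjusted p = 0.0366, limma). Of the PDGF genes 0 of 5 passed, but both receptors separated the classes relative to the median: Pdgfra, a fibroblast receptor, had a log2 difference of 3.72 (SE 0.82, adjusted p = 0.0654, limma), and Pdgfrb, shared with pericytes, one of 1.09 (SE 0.24, adjusted p = 0.0622).

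Fibroblast markers were read beside the collagens. Of these genes 3 of 13 members passed, 12 of 13 had a higher mean, and the median was 1.12. Dermatopontin (Dpt) ranged from 0.485 to 15.9 TPM (median 1.48) in collagen-rich libraries and from 0 to 0.1396 TPM (median 0.0648) in collagen-poor libraries, and it is listed at 0 in 1 collagen-poor library. Cxcl12, a chemokine of stromal cells, ranged from 0.504 to 25.8 TPM (median 6.25) in collagen-rich libraries and from 0.0291 to 0.577 TPM (median 0.109) in collagen-poor libraries (log2 difference 5.25, SE 0.90). Prrx1, a transcription factor of mesenchyme, had a log2 difference of 2.18 (SE 0.43). Dpt, Cxcl12 and Pdgfra stayed under 1 TPM in every collagen-poor library and passed the filter through the other libraries. The counts of this list are therefore no independent check on the name of the classes. The summed level of the fibroblast list, relative to the median, ran from 4.30 to 5.78 in collagen-rich libraries and from 3.57 to 4.40 in collagen-poor libraries, so the list as a sum overlapped. Of its 23 members 0 were at 0 TPM in all 12 libraries. Without GYY_PD1 replicate 3, Dpt and Acta2, described next, no longer passed (4.57 and 1.63).

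Contractile genes and pericyte markers were read as well. Of 9 tested myofibroblast and smooth muscle markers 2 passed, with a median of 1.05. Acta2, smooth muscle actin, ranged from 6.53 to 41.6 TPM (median 23.5) in collagen-rich libraries and from 2.08 to 15.1 TPM (median 4.09) in collagen-poor libraries (log2 difference 1.90, SE 0.37), and beta-tropomyosin (Tpm2) ranged from 2.66 to 21.2 TPM (median 5.33) in collagen-rich libraries and from 0.209 to 2.52 TPM (median 1.16) in collagen-poor libraries. Tagln (2.34, SE 0.54, adjusted p = 0.08202, limma) and Myl9 (0.96, SE 0.28) did not pass, although neither overlapped in its relative level. The summed contractile level overlapped, from 4.64 to 5.45 in collagen-rich libraries and from 3.97 to 4.78 in collagen-poor libraries. Pericyte markers gave 0 calls of 11, with 6 higher at an unadjusted p under 0.05 and a median of 0.87. Their summed level ran from 2.19 to 3.66 in collagen-rich libraries and from 1.55 to 1.99 in collagen-poor libraries, with no overlap.

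Further genes called higher, among the 20 of largest difference, were Cyp1b1, a cytochrome P450 (4.75, SE 0.87), Sfrp2, a secreted modulator of Wnt signalling (4.47, SE 0.64), Cpxm1, a secreted carboxypeptidase-like protein (4.14, SE 0.76), Tmem119, a membrane protein of bone-forming cells and microglia (3.63, SE 0.46), and Slit3, a secreted guidance protein (3.45, SE 0.59). Tmem119 ranged from 1.23 to 4.16 TPM (median 2.54) in collagen-rich libraries and from 0.0781 to 0.353 TPM (median 0.233) in collagen-poor libraries. No library of one class reached the other for it in TPM. Genes called with smaller differences are named here after their values were seen. They include the Wnt receptor Fzd1 (2.46, SE 0.43), the collagen-binding receptor Antxr1 (2.05, SE 0.42), the follistatin-like secreted protein Fstl1 (1.90, SE 0.37), the receptor tyrosine kinase Axl (0.82, SE 0.13) and Sqor, the mitochondrial enzyme that oxidises hydrogen sulfide (0.75, SE 0.15, adjusted p = 0.0427, limma). Sqor ranged from 7.29 to 22.9 TPM (median 16.1) in collagen-rich libraries and from 4.63 to 13.3 TPM (median 8.88) in collagen-poor libraries, and 5 of 6 collagen-rich libraries lay above all collagen-poor ones relative to the median. Over the 6 middle libraries its Pearson r with the score was 0.10. GYY4137, a sulfide donor, was given to 2 GYY_PD1 and 2 GYY_IgG tumours of the collagen-rich class and to 2 GYY_IgG tumours of the collagen-poor class. Its part in the level of Sqor was not tested. The replication-dependent histone genes Hist1h2bj, Hist1h2bg, Hist1h4d and Hist1h3d were called higher too (0.89 to 1.09), but histone genes have near-identical copies whose reads the authors' counting may have divided between them.

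Vessel and immune genes were measured beside the stroma. Endothelial markers gave 0 calls of 15, 14 had a higher mean, 9 passed an unadjusted p under 0.05, and the median was 0.78. Pecam1, a junction protein of endothelium, had a log2 difference of 0.96 (SE 0.28), and the capillary protein Plvap one of 0.78 (SE 0.25). Sox18, an endothelial transcription factor outside the list and named after its value was seen, was called (1.55, SE 0.28, adjusted p = 0.0282, limma). The summed endothelial level overlapped, running from 3.66 to 4.96 in collagen-rich libraries and from 2.49 to 4.33 in collagen-poor libraries.

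Macrophage markers gave 0 calls of 14, with 8 higher at an unadjusted p under 0.05 and a median of 0.57. Trem2, a receptor of lipid-handling macrophages, had 1.02 (SE 0.27), the growth factor receptor Csf1r 0.77 (SE 0.23) and Adgre1, which encodes F4/80, 0.76 (SE 0.23). Outside the list, and named after their values were seen, Mpeg1, a pore-forming protein of macrophages (1.18, SE 0.24), the RNA sensor Tlr8 (0.90, SE 0.18) and the lymphocyte adaptor Sash3 (1.12, SE 0.21) were called higher. The interferon gamma response gave 0 calls of 19, with 11 higher at an unadjusted p under 0.05 and a median of 0.69. Its members included the guanylate-binding protein Gbp4 (1.43, SE 0.41) and the T cell attractant Cxcl9 (1.85, SE 0.68), which ranged from 1.92 to 8.91 TPM (median 3.97) in collagen-rich libraries and from 0.207 to 9.59 TPM (median 1.11) in collagen-poor libraries and overlapped. Over the 6 middle libraries its 4 members with the smallest p correlated negatively with the collagen score. These were Gbp4, Gbp7, Irgm1 and Cxcl9 (Pearson r = -0.59, -0.37, -0.52 and -0.54). The lowest-scoring middle libraries, Veh_PD1 replicates 1 and 2 and GYY_PD1 replicate 2, all received the PD1 antibody. The highest-scoring, GYY_IgG replicate 2 and Veh_IgG replicate 5, received control antibody. Score and antibody are therefore confounded over these 6 libraries, and the r of the other members is not given.

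T and NK cell markers gave 0 calls of 5 tested, with a median of 0.49, and Cd3e ranged from 0.451 to 1.08 TPM (median 0.907) in collagen-rich libraries and from 0.3303 to 0.914 TPM (median 0.552) in collagen-poor libraries. B and plasma cell markers gave 0 of 3 with a median of -0.02, and no mast cell marker passed the filter. Neutrophil markers had the opposite sign: 7 of 9 had a lower mean and the median was -0.38, with 0 calls and 0 at an unadjusted p under 0.05 in either direction. S100a9, a calcium-binding protein of neutrophils, ranged from 21.8 to 247 TPM (median 52.8) in collagen-rich libraries and from 59.01 to 171 TPM (median 79.3) in collagen-poor libraries, which overlap widely.

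Tissue that tumours can carry from their surroundings was measured by its own markers, and its part in the differences was not tested beyond the values given. Adipocyte markers had the highest list median, 2.22, with 0 calls of 9. Their summed level ran from 3.29 to 8.07 in collagen-rich libraries and from 3.33 to 3.72 in collagen-poor libraries. The upper end is GYY_PD1 replicate 3 alone at 8.07, where the next collagen-rich library was at 4.15, and without that library the list median was 0.74. Without it the medians of the matrix lists were 1.22 for small leucine-rich proteoglycans, 1.31 for elastic fibres, 1.08 for matrix glycoproteins, 1.34 for fibrillar collagens and 0.71 for fibroblast markers, and 30 genes were called, 29 of them among the 55. Cfd, the adipocyte-secreted adipsin, ranged from 0.09401 to 290.4 TPM (median 3.26) in collagen-rich libraries and from 0 to 1.38 TPM (median 0.2396) in collagen-poor libraries, and it is listed at 0 in 2 collagen-poor libraries. Mesothelial markers, of the cells that line body cavities, gave 0 calls of 4 with a median of 1.04. Their summed level ran from 0.51 to 2.37 in collagen-rich libraries and from -0.36 to 0.48 in collagen-poor libraries, with no overlap.

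Kidney proximal tubule markers gave 0 calls of 13 with a median of 0.48 and a summed level from 2.58 to 4.93 in collagen-rich libraries and from 2.51 to 4.41 in collagen-poor libraries. The water channel Aqp1, found in tubule and in vessels, led them at 2.03 (SE 0.51). Without GYY_PD1 replicate 3 the median was 0.17 for proximal tubule markers, -0.65 for distal nephron markers and 0.05 for B and plasma cell markers. Distal nephron and collecting duct markers had a median of -0.21 with 0 calls of 7, and skeletal muscle markers one of 0.97 with 0 of 3. Schwann cell and nerve markers gave 0 of 4. Ncam1, a cell adhesion molecule also found in mesenchyme, had 3.09 (SE 0.83) and Mbp 1.03 (SE 0.39). Pmp22 had -0.05 (SE 0.13) and L1cam -0.03 (SE 0.16). The summed level of the list overlapped, from 3.44 to 3.79 in collagen-rich libraries and from 3.13 to 3.78 in collagen-poor libraries. All 6 tested erythroid genes were lower on average, with a median of -0.76 and 0 calls. The haemoglobin gene Hbb-bs ranged from 4.0000 to 183 TPM (median 72.4) in collagen-rich libraries and from 44.6 to 194 TPM (median 89.2) in collagen-poor libraries, with a wide overlap.

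**Figure D3:**
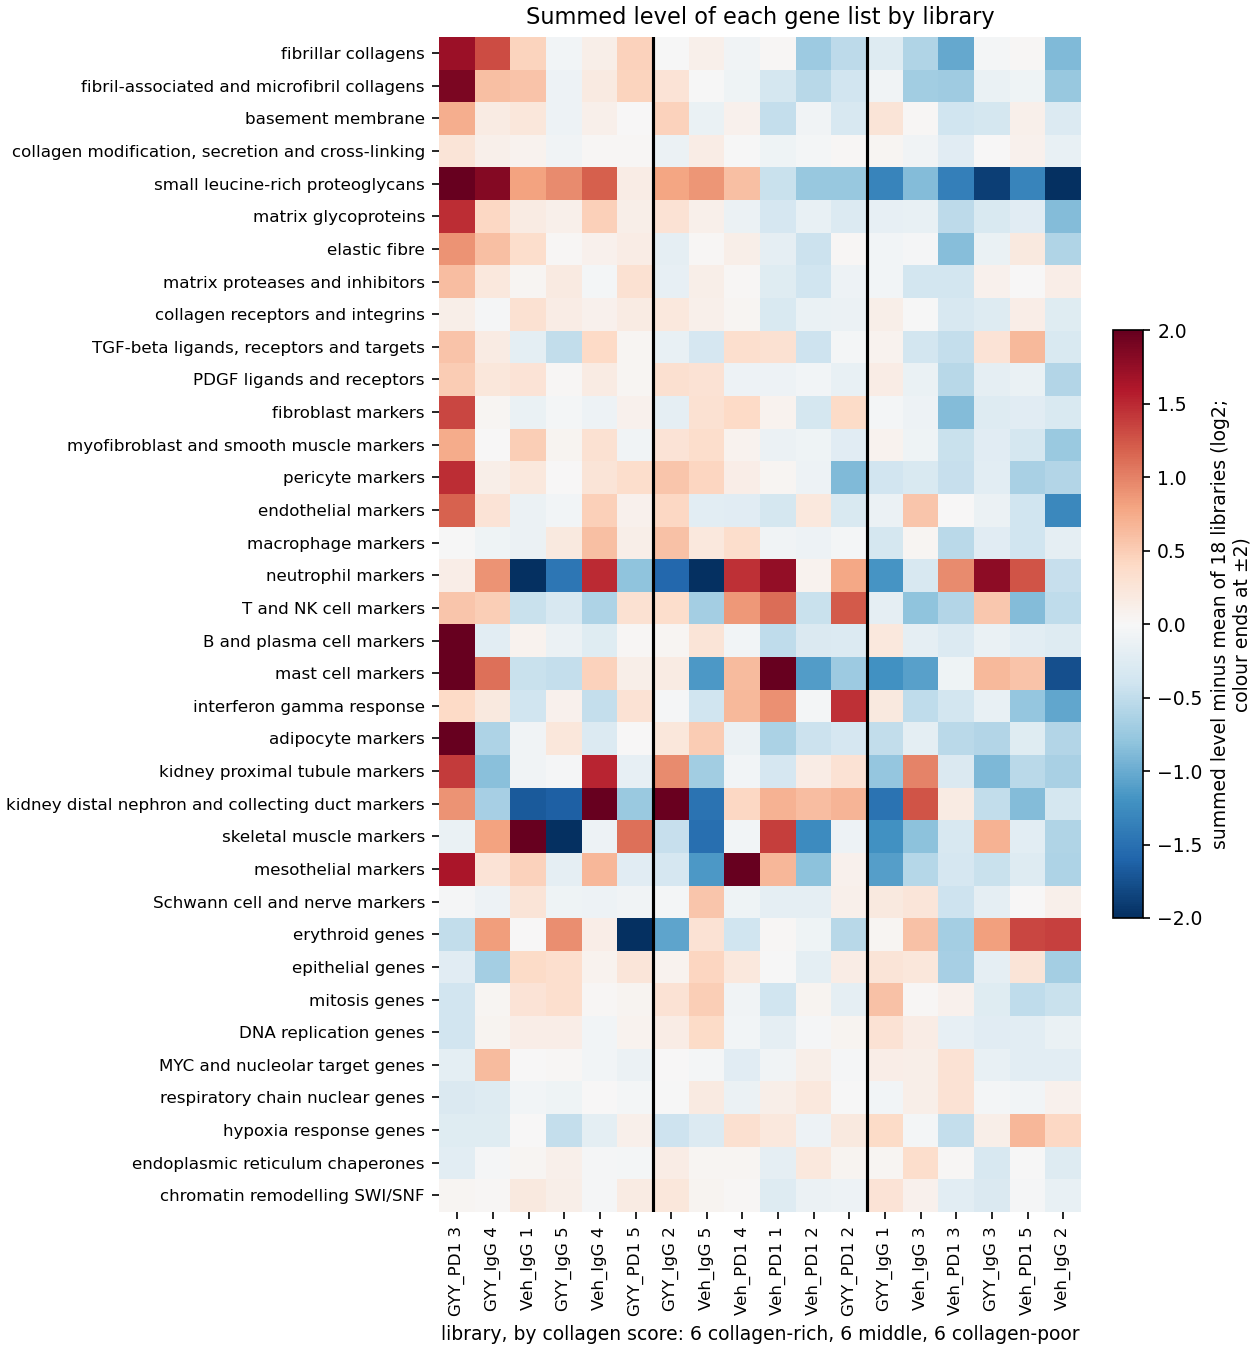
Summed level of each gene list (log2, relative to the library median, minus the mean of the 18 libraries) with libraries ordered by collagen score from left to right and lines at the class boundaries. The small leucine-rich proteoglycans run from 2.56 to 6.29 before centring in collagen-rich libraries and from 0.04 to 1.54 in collagen-poor libraries, and the adipocyte markers are highest in GYY_PD1 replicate 3.

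The lists of mitosis, DNA replication, MYC target, epithelial, chaperone and SWI/SNF genes gave no call with limma. Mitosis genes gave 0 calls of 20 and 0 at an unadjusted p under 0.05, with a median of 0.18. DNA replication genes had a median of 0.13, MYC and nucleolar targets 0.19, epithelial genes 0.18, endoplasmic reticulum chaperones 0.00 and SWI/SNF subunits 0.16, each with 0 calls. Keratin 18 (Krt18) ranged from 33.4 to 203 TPM (median 101) in collagen-rich libraries and from 49.9 to 181 TPM (median 70.7) in collagen-poor libraries. Smarcb1, the subunit whose loss typifies this cancer, was read in all 12 libraries and ranged from 11.004 to 46.6 TPM (median 21.6) in collagen-rich libraries and from 7.33 to 40.6 TPM (median 16.5) in collagen-poor libraries, a difference of 0.42 (SE 0.16) that did not pass (adjusted p = 0.263, limma). Bulk RNA holds host cells as well, so its source cannot be told apart.

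Hypoxia and respiratory chain genes had list medians below 0 and no call. Of 14 tested hypoxia response genes 11 had a lower mean, 6 were lower at an unadjusted p under 0.05 and 0 passed with limma, with a median of -0.27. Over all 11821 tested genes 5431 had a lower mean, and 6.23% were lower at an unadjusted p under 0.05. Kdm3a, a histone demethylase induced by low oxygen, was lower in every collagen-rich library than in any collagen-poor one relative to the median (-0.54, SE 0.13, adjusted p = 0.08304, limma). Bnip3, which acts in mitophagy, had -0.68 (SE 0.23) and Ankrd37 -1.07 (SE 0.36). Of 19 nuclear genes of the respiratory chain 13 had a lower mean and 4 were lower at an unadjusted p under 0.05, with 0 calls and a median of -0.16. Cox4i1 of complex IV showed -0.47 (SE 0.14) and Ndufa4 -0.52 (SE 0.20).

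**Figure D4:**
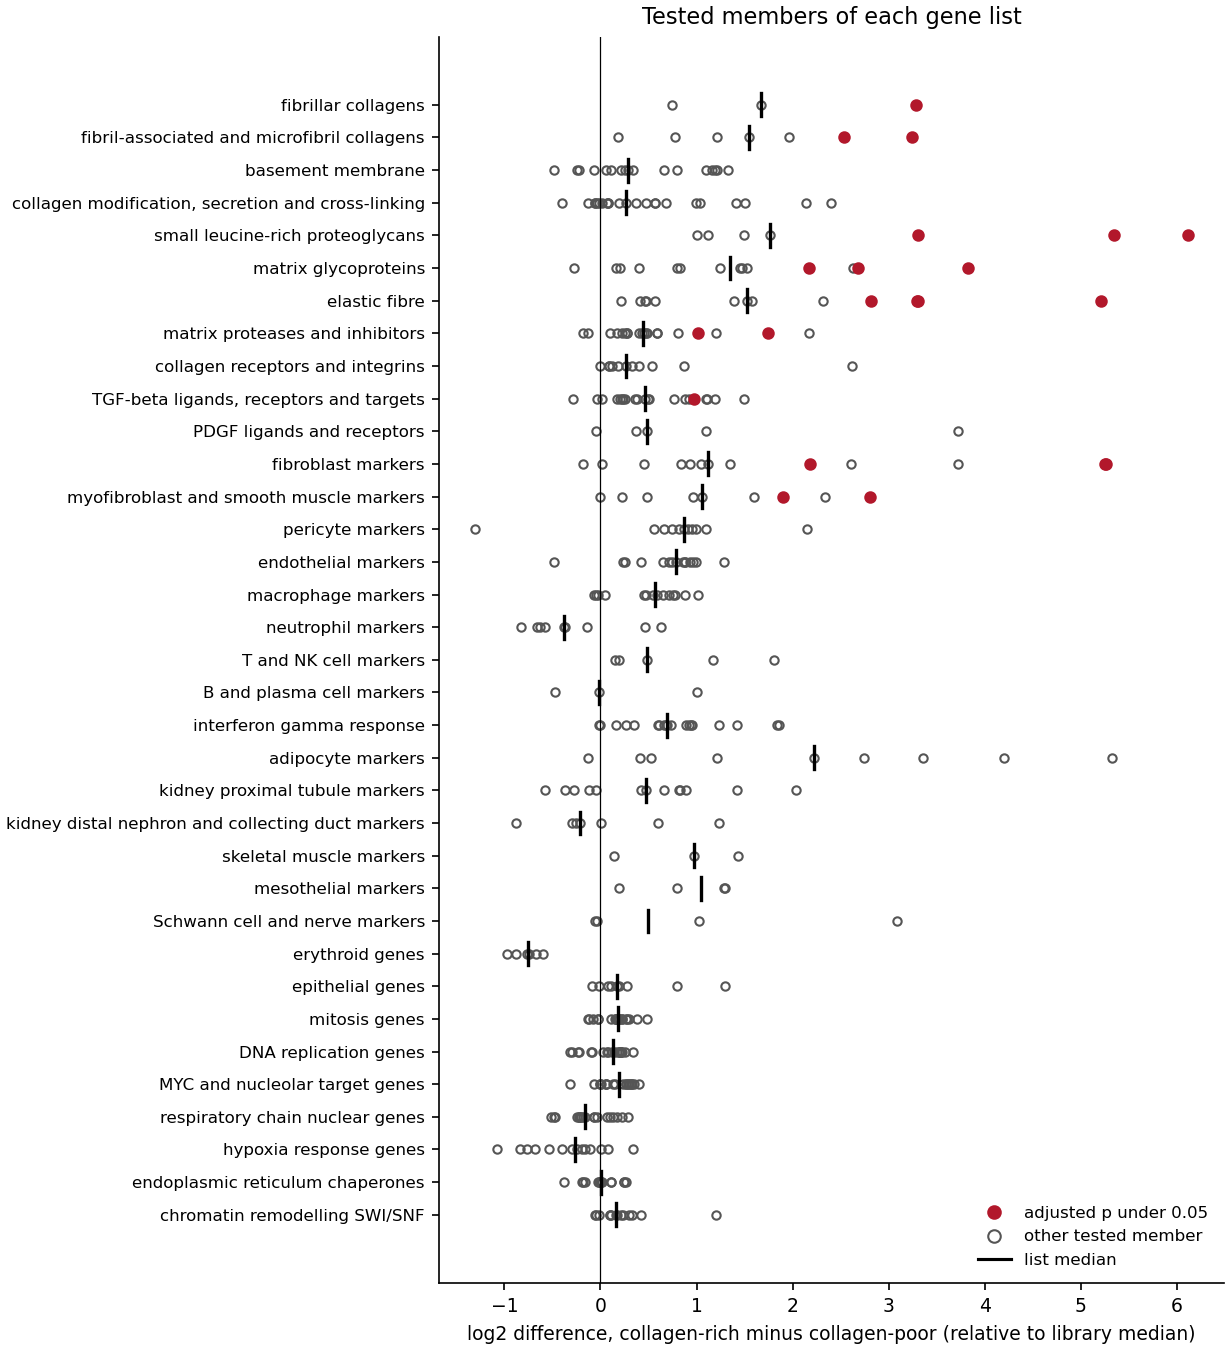
Log2 difference of each tested member of the gene lists, collagen-rich minus collagen-poor and relative to the library median (horizontal axis), with called genes as filled points and list medians as black bars. Called members fall in the matrix, fibroblast, contractile and TGF-beta lists, and the medians of the mitosis, replication and endoplasmic reticulum lists lie between 0.00 and 0.18.

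The 10 genes called lower in collagen-rich tumours had small differences. The largest was that of Calr4, a calreticulin-like gene, which ranged from 0.525 to 2.91 TPM (median 1.53) in collagen-rich libraries and from 1.78 to 5.16 TPM (median 2.98) in collagen-poor libraries (log2 difference -1.24, SE 0.24, adjusted p = 0.0366, limma). Cpn1, the catalytic chain of carboxypeptidase N, had -0.91 (SE 0.18), and Orm3, an acute-phase orosomucoid, -0.73 (SE 0.14). Also called lower were Rmnd1 (-0.73, SE 0.15), a factor of mitochondrial translation, Tiparp (-0.65, SE 0.11), an ADP-ribosyltransferase induced by the aryl hydrocarbon receptor, Ccnl1 (-0.61, SE 0.12), a cyclin of RNA splicing, Ddb2 (-0.57, SE 0.11), a DNA damage sensor, Mgst2 (-0.56, SE 0.11), a glutathione transferase, and Mphosph6 (-0.56, SE 0.11), a partner of the RNA exosome. None of the 10 separated the classes in TPM.

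Libraries outside the 2 classes give a view of the called genes that the comparison did not use. Over the 6 middle libraries, 3 of which score from 0.81 to 1.43 and 3 from -1.04 to -0.76, the level of 43 of the 45 higher genes correlated positively with the collagen score, where 57.4% of all tested genes did. Of the 10 lower genes 8 correlated negatively, where 42.6% of all did. The exceptions among the higher genes were Mpeg1 and Hist1h2bj, and among the lower genes Mgst2 and Rmnd1. In the middle libraries Dcn ranged from 1.37 to 34.7 TPM (median 6.55) and Postn from 0.838 to 12.1 TPM (median 2.16), so both reached levels of each class. Just 6 points stand behind each of these signs, which are a description. Score and antibody are also confounded over the middle libraries, where those scoring below 0 all received the PD1 antibody.

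The genes whose level followed the collagen score most closely over all 18 ranked libraries were Col5a2 (Pearson r = 0.98), Fbn1 (0.97), Bgn (0.95), Adamts2 (0.95) and Col6a2 (0.95). These r values include the 12 libraries that chose the called genes, and libraries share the satellite-like background, so they describe likeness only.

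The comparison could also be read inside a treatment, because GYY_IgG and Veh_IgG each hold 2 collagen-rich and 2 collagen-poor tumours. Within GYY_IgG all 45 higher genes had a higher mean in the collagen-rich pair, with a median log2 difference of 1.79, where 56.4% of all tested genes did. Within Veh_IgG all 45 did as well, with a median of 2.06, against 55.0% of all tested genes. All 10 lower genes were lower in both treatments. These 8 libraries are among the 12 that chose the genes, so the counts are a description of 2 treatments that occur in both classes. With treatment as a term, which ended all calls, the median difference of the 45 higher genes was 1.83, against 2.17 without the term.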

How the data were processed

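RNA of 20 tumours was measured, 1 library per labelled replicate. The authors deposited log2 TPM with no constant added, as judged from the values, and a TPM of 0 is written as -8.88. Cutadapt, fastp, Salmon 0.14.1, HTSeq 0.11.0 and build mm10 are named by the submitters' processing notes, and which of them made the TPM is not given in the sources used here. Raised back, libraries sum to between 999797 and 1000220 TPM, so read depth is unknown and its precision cannot be given. Gene types and positions come from GENCODE M21 (33908 of 34234 names found).

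The expression filter was 1 TPM in 5 or more libraries (15422 genes passed, of which 11821 protein-coding genes other than the 3 of the score were tested). The library median was subtracted, and the 6 highest and 6 lowest of 18 libraries were compared using limma 3.58.1 (R 4.3.3) with trended variance and Benjamini-Hochberg adjustment. The fit was tested on simulated data. The samples are labelled as biological replicates, so the spread entering each fit is that between tumours. The classes were set from RNA of the same libraries, so the limma p-values rank genes and do not test an independent grouping. The score was compared between treatments by exact permutation (scipy 1.17.1). Alternatives changed the scale, pseudocount, filter, gene types, model terms, variance trend and libraries included. Named genes are the 20 largest called differences in each direction without provisional names, up to 4 members per list with the smallest p, and the 5 closest to the score. A gene that this rule covers is not reported here. Satellite-like models repeat with a period of 225 to 240 bases (50% identity, at least 400 bases) and share 10% of 12-base words with Gm10800. The members and gene lists were chosen with earlier results of these data known.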

Additional observations from a re-analysis of the deposited data

Results flagged for a closer look

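Of 185 groups of 5 or 6 values examined, 26 held a library that stood apart from the others of its class, where chance gives about 5%. That rate holds for independent groups. These groups share libraries and include genes chosen for following the score, so the excess is not a test. All levels here are log2, relative to the library median. In the collagen-rich class GYY_PD1 replicate 3 stood apart as the high library for 9 called genes: Antxr1 at 0.51, Cd200 at 1.30, Eln at 0.57, Mfap4 at 0.75, Mmp14 at 2.57, Olfml3 at -0.57, Pmepa1 at 0.43, Prrx1 at 0.41 and Thbs2 at 2.05. Without being flagged, it was the highest collagen-rich library for other called genes too, among them Lum, Dcn, Bgn, Postn, Fbn1, Acta2 and Cxcl12. It also stood apart as the high library for the summed level of 6 lists, which were fibril-associated and microfibril collagens (4.65), matrix glycoproteins (7.74), fibroblast markers (5.78), pericyte markers (3.66), B and plasma cell markers (2.44) and adipocyte markers (8.07).

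In the collagen-poor class the library that stood apart was Veh_IgG replicate 2 for Col8a1 (-6.47) and Pmepa1 (-4.48), Veh_IgG replicate 3 for Calr4 (-1.87) and for kidney proximal tubule markers (4.41), GYY_IgG replicate 3 for Dpt, which is listed at 0 TPM there (-10.6), Veh_PD1 replicate 5 for Mpeg1 (0.0245), Veh_PD1 replicate 3 for fibroblast markers (3.57) and GYY_IgG replicate 1 for B and plasma cell markers (0.50). In the collagen-rich class Veh_IgG replicate 1 stood apart for Schwann cell and nerve markers (3.79), GYY_PD1 replicate 5 for erythroid genes (0.88) and GYY_IgG replicate 4 for MYC and nucleolar target genes (7.67).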

How the results depend on the processing

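The number of called genes depended on the processing. All 55 kept their sign in every alternative in which they were tested. These genes were chosen from libraries that the alternatives fit again, so the kept signs were largely set in advance and are no independent support. Against 55 calls (45 higher, 10 lower), a threshold of 0.01 gave 8 (8 and 0), a pseudocount of 1 TPM 12 (11 and 1), a filter of 5 TPM in 6 libraries 7 (6 and 1, with 22 of the 55 genes tested), no filter 34 (3 lower), all gene types 12 (10 and 2), no variance trend 29 (28 and 1), the annotated coding share as a term 32 (2 lower) and treatment as a term 0 (0 and 0), where the smallest adjusted p was 0.203. The deposited scale, whose median over all tested genes was 0.11, gave 67 with 5 lower (29 of the 55 among them), and rescaling to coding genes 37 with 0 lower (20 of the 55). In both of these fits the prior degrees of freedom were infinite, so all genes took the trended variance, and their counts are not comparable with the rest. The collagen score as a continuous term over 18 libraries called 922 (575 and 347), including 52 of the 55. Alternatives chosen after seeing the data were rescaling to coding genes without satellite-like models (32, with 1 lower), the satellite-like share as a term (72), leaving out the 5 libraries above 20% satellite-like TPM (11 and 0 lower) and leaving out the 2 libraries of highest score (15 and 0 lower). The cause of these shifts was not tested. With 1 library left out in turn the calls ran from 13 (13 higher, without GYY_IgG replicate 4) to 72 (49 higher and 23 lower, without GYY_IgG replicate 1), and the lowest counts were 13 higher and 0 lower. Calls numbered 30 without GYY_PD1 replicate 3, 31 without Veh_IgG replicate 1, 29 without GYY_IgG replicate 5 or Veh_PD1 replicate 5, 22 without Veh_IgG replicate 4 or 2, 34 without GYY_PD1 replicate 5, 32 without Veh_IgG replicate 3, 20 without Veh_PD1 replicate 3 and 33 without GYY_IgG replicate 3. For the treatment tests of the score, 1 library left out gave differences from 1.11 to 1.95 for GYY4137 and from -1.04 to -0.05 for the PD1 antibody, and no alternative passed.

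In the main comparison the replicate numbers of the labels were not used to pair the samples. Same-numbered libraries of different groups correlated between -0.34 and 0.35 in their deviations (median 0.01), over 0.1 in 10 of 24 pairs. Libraries of other numbers correlated between -0.46 and 0.46 (median -0.02), over 0.1 in 27 of 96 pairs. A replicate block gave 39 calls (37 higher and 2 lower). With no read numbers, what depth limits cannot be stated, and genes near 1 TPM are the least certain.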
